A study of Mus musculus with 7 samples.

Results

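The 10 genes described here mark or specify fibroblasts of muscle connective tissue and tendon cells: Pdgfra, Pdgfrb, Twist1, Twist2, Tcf4, Osr1, Prrx1, Scx, Tnmd and Mkx. They were chosen by symbol, and all 10 were found among the 31531 genes of the normalized counts. Each had a mean normalized count of at least 5 over the 7 libraries, so all 10 were among the 25791 genes tested. RNA came from muscle fibers of epaxial muscle, the muscle along the back, of mouse fetuses at embryonic day 17.5 (E17.5). The wt group held 4 libraries from 4 wildtype fetuses and the dyW group held 3 libraries from 3 dyW/dyW fetuses, which are homozygous for a disrupted Lama2 gene and serve as a mouse model of LAMA2-congenital muscular dystrophy. Both groups descend from crosses between C57BL/6 heterozygotes of that allele. Lama2 encodes the α2 chain of laminin 211, a main laminin of the basement membrane around muscle fibers. The allele acts in every cell of the fetus, and the strainer that retained the fibers after enzyme digestion is a mechanical step, with no sort for a cell type. In such a bulk lysate, fewer cells of a type and less RNA per cell cannot be told apart.

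The receptors PDGFRα and PDGFRβ respond to platelet-derived growth factors. PDGFRα marks the interstitial fibroblasts of muscle, which include the fibro-adipogenic progenitors, and PDGFRβ marks pericytes and many fibroblasts. Osr1 and Prrx1 are transcription factors of embryonic connective tissue and limb mesenchyme. TWIST1, TWIST2 and scleraxis, the product of Scx, are basic helix-loop-helix (bHLH) proteins that bind the E-box sequence CANNTG as pairs with an E protein. Tcf4 in this list encodes one of the E proteins, also named E2-2. The factor that is often called TCF4 in work on muscle connective tissue is the product of another gene, Tcf7l2. Scx and Mkx are transcription factors of tendon, and tenomodulin, the product of Tnmd, is a membrane protein of differentiated tendon cells.

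Some facts about the libraries touch every value below. Between 470804 and 2220813 reads were counted on genes in a wt library and between 3663905 and 18297106 in a dyW library, and 1 read was worth between 2.05 and 5.33 normalized counts in the wt libraries against between 0.0974 and 0.488 in the dyW libraries. The targeted gene, Lama2, read between 90.6 and 110.6 normalized counts in the wt libraries, 4.29 in dyW1 and 6.07 in dyW2, but 139.7 in the library labelled dyW3, which is above every wt library, so the fold changes of the 10 genes and the calls among related genes are also given without it. Marker genes of the labelled tissue were uneven. The summed normalized counts of 9 muscle fiber markers ranged from 2580 to 67892 in the wt libraries and were 7293 in dyW2 and 4267 in dyW3, but 65.4 in dyW1, where Ckm, Myh3, Myh8 and Actn2 had no read. The 6 erythroid markers summed to 15.99 in wt1 and 14.8 in dyW1 against between 28845 and 291219 in the other 5 libraries, and the 5 cartilage markers summed to 433621 in wt1 against between 19.7 and 7908 in the other 6.

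**Figure D1:**
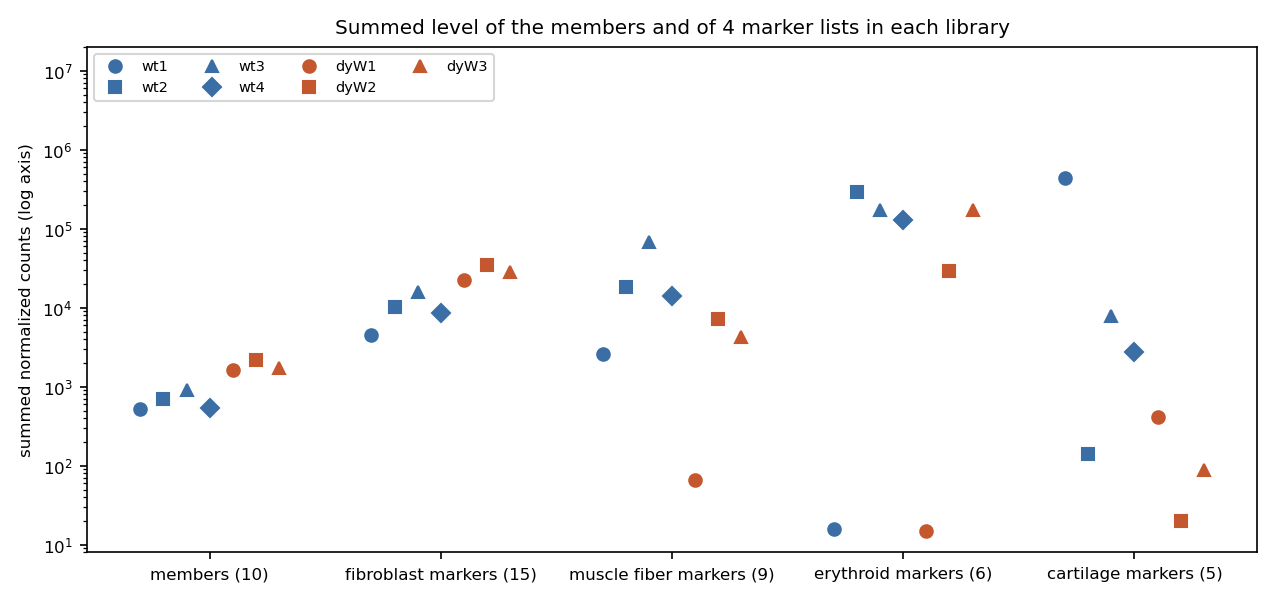
Summed normalized counts, on a log axis, of the 10 fibroblast and tendon identity genes and of 4 marker lists, with 1 point per library (4 wt, 3 dyW). The 10 genes summed to between 522 and 901 in the wt libraries and to between 1640 and 2177 in the dyW libraries. Few genes carry these sums. Tcf4 and Pdgfra gave 755.4 and 280.4 in dyW1 and 855.6 and 337.4 in dyW3, and Tnmd gave 1097 in dyW2. For muscle fiber markers dyW1 stands at 65.4, and for erythroid markers wt1 and dyW1 stand at about 15.

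Under the study's thresholds, an adjusted p under 0.01 and an absolute log2 fold change over 1.5, 0 of the 10 genes were lower in dyW and 0 were higher (limma; voom on the recovered reads also called 0 in each direction). Over all genes tested, 18.7% were lower and 0.0659% were higher by that rule. With an adjusted p under 0.05 and the same fold threshold, Pdgfra and Tcf4 rose, 2 of 10 against 1.004% of all genes and 3.98% of the 6111 genes with a mean of at least 50, and 0 of 10 fell against 29.6%. With quantile normalization or a mean filter of at least 50, none of the 10 passed at 0.05. At an unadjusted p under 0.05, 3 of the 10 were higher (Pdgfra, Twist1 and Tcf4) and 2 were lower (Osr1 and Scx). Of all 25791 genes tested, 11433 had an unadjusted p under 0.05 in either direction, a share near that of the 10 genes. Every dyW library lay above every wt library for 3 of the 10 genes, Pdgfra, Twist1 and Tcf4, against 3.28% of all genes tested and 12.2% of those 6111 genes. Every wt library lay above every dyW library for 1 gene, Osr1, against 31.5% of all genes. The median log2 fold change of the 10 genes was 0.17, where that of all tested genes was -1.99, a difference of 2.16. The genes with a mean of at least 50 had a median of 0.20. With only such genes tested, 4 of the 10 were left and the difference was 1.14, and with quantile normalization it was 0.94; with a pseudocount of 0.1 the median of the 10 was -0.35. Relative to that median, Osr1 and Scx stood at -0.57 and -0.31 and the other 8 genes between 0.21 and 3.97. With 4 and 3 libraries the smallest p an exact two-sided permutation test can give is 0.0571, so no single gene could pass 0.05 by that test.

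**Figure D2:**
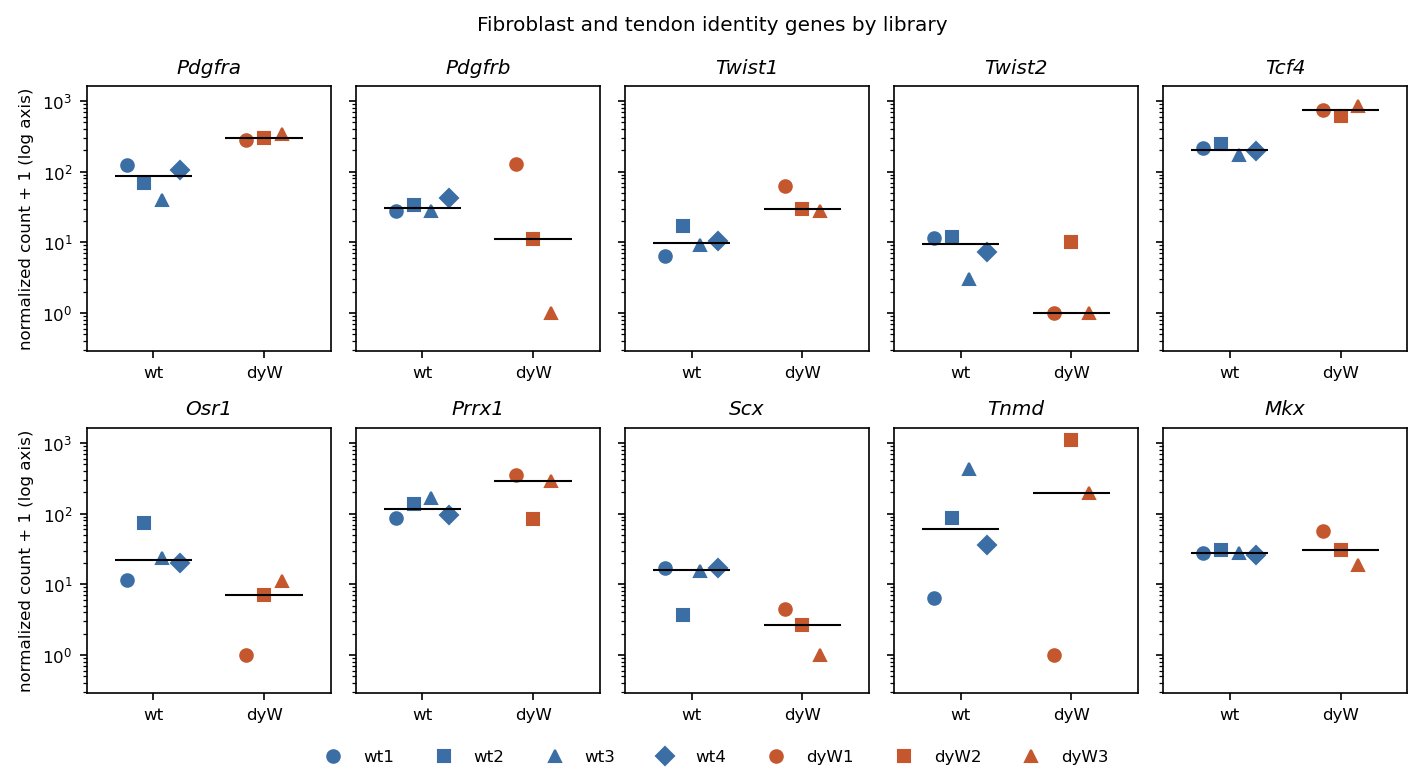
Normalized count plus 1, on a log axis, of each of the 10 genes in each library, with the median of each group as a bar; a point at 1 is a library with no read. Pdgfra, Twist1 and Tcf4 are higher in all 3 dyW libraries than in all 4 wt libraries, while Pdgfrb and Tnmd spread from 0 to 127 and from 0 to 1097 normalized counts within the dyW group.

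The wt values need a scale of their own. The median of 1388 odorant and vomeronasal receptor genes, which are known mainly from sensory neurons of the nose, was between 0.631 and 2.51 reads per kb of exon in the wt libraries and 1.84 in dyW3, and 0 in dyW1 and dyW2. Of the 40 wt values of the 10 genes, 37 lay under 3 times the reads that this receptor level gives for an exon length of that size, and 22 lay under the level itself. The 95% Poisson interval of the reads, which covers counting error only, held the receptor level for 25 of the 40 values, lay above it for 8 and below it for 7. Of all wt values of tested genes, 83.9% lay under 3 times the level. This level is a median. Reads of the receptor genes pooled gave between 1.36 and 2.79 per kb in wt, 2.08 in dyW1, 0.389 in dyW2 and 15.25 in dyW3. The multiples for dyW3 and the level of 0 in dyW1 and dyW2 therefore depend on the choice of the median. The origin of reads at either level was not tested.

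**Figure D3:**
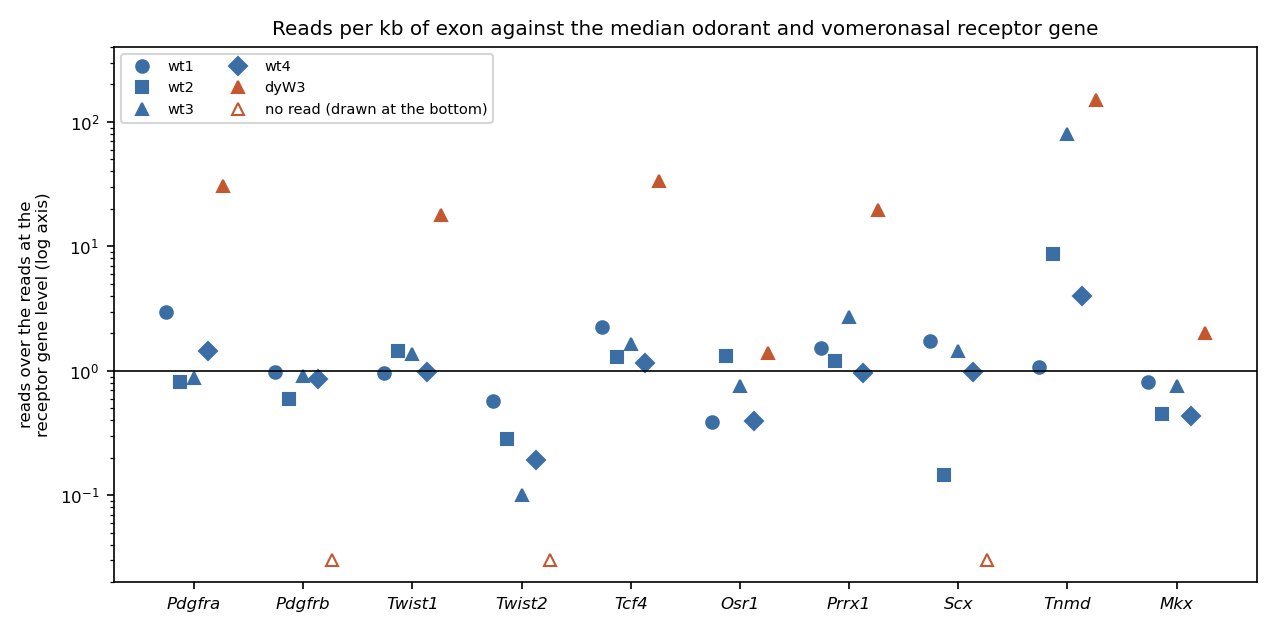
Reads of each of the 10 genes divided by the reads that the median odorant or vomeronasal receptor gene would give over the same exon length, on a log axis, for the 4 wt libraries and dyW3; dyW1 and dyW2 are not drawn because their receptor median is 0. All wt points but 3 of Tnmd lie under 3, and dyW3 lies at 30.5 for Pdgfra, 17.8 for Twist1 and 33.7 for Tcf4. In dyW3 the pooled receptor level is 15.25 reads per kb against a median of 1.84, so its points would lie lower on the pooled level.

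Of the PDGF receptors, Pdgfra rose. Its gene lies on the plus strand of chromosome 5 in GRCm39 (chr5:75311994-75358876). Normalized counts were 122.6, 67.4, 38.97 and 103.8 in wt1 to wt4. They were 280.4 in dyW1, 296.1 in dyW2 and 337.4 in dyW3. The 3 dyW libraries were close together and all above the highest wt library. The group means were 83.2 ± 37.3 for wt (SD, n = 4) and 304.7 ± 29.5 for dyW (SD, n = 3), 3.66-fold higher in dyW, and the log2 fold change was 1.98 ± 0.58 (SE; 95% interval 0.67 to 3.29; limma, adjusted p = 0.0286), or 1.91 without dyW3. The wt values rested on 19 to 33 reads each, between 0.81 and 2.96 times the receptor level, and the dyW values on 691 to 2878 reads. The adjusted p was 0.0407 without wt1 and dyW1 together, but it rose above 0.05 without dyW3 (0.0504), dyW1 (0.0502), dyW2 (0.0581), wt2 (0.0802) or wt4 (0.0518), within a range of 0.0143 to 0.346 over all 17 alternatives. Exons of Pdgfra overlap those of Gm42802 and Gm42803 on the opposite strand and of Mir7025 on the same strand. Reads from the shared bases cannot be told apart here.

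Pdgfrb, the other receptor, passed no test and was uneven in dyW. Its normalized counts were 26.7, 32.4, 26.7 and 40.9 in wt1 to wt4, then 127.3 in dyW1, 10.1 in dyW2 and 0 in dyW3, where the 3 reads that a count of 0 allows come to 1.47 normalized counts. The wt libraries lay within 1.53-fold of each other, and the dyW libraries lay both above and below them. The means were 31.6 ± 6.7 for wt (SD, n = 4) and 45.8 ± 70.7 for dyW (SD, n = 3), 1.45-fold higher in dyW and 6.26-fold lower without dyW1, whereas the log2 fold change, from means of log values, had the other sign. It was -1.51 ± 1.41 (SE; limma, adjusted p = 0.440), and it was 0.23 without dyW3 and -3.27 without dyW1 (adjusted p = 0.0409, within 0.0409 to 0.976 over 16 alternatives), so that the direction differed between the scales and with dyW1 or dyW3 left out. Each wt value lay between 0.59 and 0.98 times the receptor level. Within a library the log2 ratio of Pdgfra to Pdgfrb reads, with 0.5 reads added to each, was between 0.53 and 2.10 in wt and was 1.14 in dyW1, 4.86 in dyW2 and 10.43 in dyW3. The groups overlapped in this ratio (exact two-sided permutation p = 0.171; 0.343 after Benjamini-Hochberg adjustment over the 6 ratios computed).

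The ligands and signalling proteins of these receptors had few calls. Of the 4 PDGF ligand genes, 0 passed the test in either direction at 0.05, where 29.6% of all genes tested were lower and 1.004% higher. Pdgfd, 1 of the 4, lay above wt in every dyW library, against 3.28% of all genes and 12.2% of genes with a mean of at least 50. It read between 15.99 and 53.9 in wt and between 84.5 and 96.1 in dyW (log2 fold change 1.55, limma adjusted p = 0.0912). The median log2 fold change of the 4 ligand genes was 0.96. Of 11 genes for proteins that dock on or act below the receptors, again 0 passed, with a median of 0.67. Rasa1, the GTPase-activating protein for RAS, was the 1 member of that list with every dyW library above every wt library, against 3.28% of all genes tested and 12.2% of genes with a mean of at least 50 (between 34.6 and 77.9 in wt, between 119.3 and 244.0 in dyW; log2 fold change 1.51, limma adjusted p = 0.0808).

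Of the bHLH genes among the 10, Tcf4 was the 1 that passed at 0.05. The gene lies on the plus strand (chr18:69476427-69822150, GRCm39), and its exons overlap the lncRNA genes Gm31439 and Gm58501. Normalized counts were 213.2, 248.1, 170.3 and 191.9 in wt1 to wt4. In dyW1, dyW2 and dyW3 they were 755.4, 615.7 and 855.6. The groups stood well apart, with a lowest dyW library over 2 times the highest wt library. Means were 205.9 ± 33.2 (SD, n = 4) and 742.2 ± 120.5 (SD, n = 3), 3.60-fold higher in dyW, with a log2 fold change of 1.85 ± 0.43 (SE; 95% interval 0.86 to 2.83; limma, adjusted p = 0.0113). Without dyW3 the log2 fold change was 1.74. The adjusted p was 0.0352 without dyW3, 0.0303 without wt1 and dyW1 together, and 0.00940 without wt3, within a range of 0.00293 to 0.495 over 17 alternatives. The wt values rested on 40 to 92 reads, between 1.15 and 2.24 times the receptor level, and 3 of the 4 had a counting interval above that level.

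Tcf7l2, the gene that shares the name TCF4 in the connective tissue literature, passed no test. It read 106.6, 99.8, 104.6 and 59.8 in wt1 to wt4, 331.2 in dyW1, 332.0 in dyW2 and 63.0 in dyW3, so dyW1 and dyW2 lay above every wt library, as for Tcf4, and dyW3 fell within the wt range. Its log2 fold change was 1.07 (limma, adjusted p = 0.280). The log2 ratio of Tcf4 to Tcf7l2 reads within a library did not separate the groups (exact two-sided permutation p = 0.571; 0.686 after adjustment).

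Twist1 was higher in every dyW library but passed no adjusted threshold. The gene lies on chromosome 12 (chr12:34007645-34009828, plus strand, GRCm39) and overlaps no other annotated gene. Normalized counts were 5.33, 16.2, 8.21 and 9.44 in wt1 to wt4 and 62.4, 28.5 and 26.4 in dyW1 to dyW3. The lowest dyW library exceeded the highest wt library, but the wt values stood for 1, 6, 4 and 3 reads, and each of the 4 counting intervals held the receptor level. The mean was 3.99-fold higher in dyW, and the log2 fold change was 1.88 ± 0.71 (SE; limma, adjusted p = 0.0720), or 2.10 without dyW3 (adjusted p = 0.0369, within 0.0320 to 0.280 over 16 alternatives). Its paralog Twist2 read 10.7, 10.8, 2.05 and 6.29 in the wt libraries and 9.11 in dyW2, with no read in dyW1 or dyW3. Twist2 overlapped between the groups (log2 fold change -1.78 ± 1.003, SE; limma, adjusted p = 0.205; -1.23 without dyW3, adjusted p = 0.374), and its wt values of 1 to 4 reads were 0.10 to 0.57 times the receptor level. The log2 ratio of Twist1 to Twist2 reads was between -0.74 and 1.58 in wt and was 10.32, 1.64 and 6.77 in dyW1, dyW2 and dyW3. This was the 1 ratio of 6 with no overlap (exact two-sided permutation p = 0.0571, the smallest possible; 0.343 after adjustment), and dyW2 exceeded wt3 by only 0.05.

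The E protein partners and the Id inhibitors, which bind E proteins and keep them from DNA, were a list of 6 genes. Of these 1 rose at 0.01, against 0.0659% of all genes tested: Tcf12, an E protein like Tcf4. Its normalized counts were between 106.6 and 175.3 in wt and 457.7, 548.4 and 1053 in dyW1, dyW2 and dyW3 (log2 fold change 2.29 ± 0.51, SE; limma, adjusted p = 0.00872; 0.0256 without dyW3). Its wt values were 1.09 to 1.99 times the receptor level, from 20 to 65 reads. Tcf3, another E protein gene, read between 53.3 and 86.2 in wt and between 30.3 and 40.7 in dyW without overlap. This order held for 31.5% of all genes and 6.81% of genes with a mean of at least 50. The log2 fold change of Tcf3 was -1.05 (limma, adjusted p = 0.180). Scaled to the same total, the groups overlapped for Tcf3, at 18.6 ± 2.8 RPM, reads scaled to the library's total on genes, in wt (SD, n = 4) and 19.5 ± 2.0 in dyW (SD, n = 3). The inhibitors Id1, Id2, Id3 and Id4 overlapped between the groups, with adjusted p of 0.287 or more by limma. The median of the list was 0.46.

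Because TWIST, scleraxis and E proteins bind the E-box CANNTG, which reads the same way on both strands, the 250 bases before the start of each gene were searched for it in the RefSeq promoter table (GRCm38.p6). The table held 5 of the 10 genes. Pdgfra had 1 E-box, and Twist1, Twist2, Prrx1 and Tnmd had 0 each, whereas 66.2% of the 32851 promoters of the table held at least 1. The E-box of Pdgfra reads CATCTG and starts 182 bases before the gene start. The sequences of Pdgfra and Twist1, the 2 of these 5 genes with no overlap between the groups, are shown 5′ to 3′ on the gene's strand, with the E-box in capitals. A match describes these letters and is not a site shown to be bound, and the absence of one says nothing of sequence outside this window.
Pdgfra (chr5:75152001-75152250, plus strand, GRCm38.p6): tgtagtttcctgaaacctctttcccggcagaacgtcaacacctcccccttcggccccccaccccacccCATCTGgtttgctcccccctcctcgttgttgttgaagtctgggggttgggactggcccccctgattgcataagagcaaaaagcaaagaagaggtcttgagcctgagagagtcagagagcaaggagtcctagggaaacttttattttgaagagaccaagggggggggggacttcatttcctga
Twist1 (chr12:33957421-33957670, plus strand, GRCm38.p6): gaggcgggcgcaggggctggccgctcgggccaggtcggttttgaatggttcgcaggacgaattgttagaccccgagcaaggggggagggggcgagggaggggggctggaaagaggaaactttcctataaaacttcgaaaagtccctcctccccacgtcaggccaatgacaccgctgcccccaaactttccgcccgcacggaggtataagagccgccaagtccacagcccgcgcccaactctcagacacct

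Prrx1 and Osr1, the mesenchymal transcription factors, went different ways and neither passed an adjusted threshold. Prrx1 (chr1:163041844-163142033, minus strand, GRCm39) read 85.3, 134.8, 164.1 and 94.4 in wt1 to wt4 and 354.2, 83.7 and 291.1 in dyW1 to dyW3. Both dyW1 and dyW3 lay above every wt library, and dyW2 lay just under the lowest. The log2 fold change was 0.82 ± 0.65 (SE; limma, adjusted p = 0.361), and 0.57 without dyW3 (adjusted p = 0.552). With every library scaled to the same total, the groups did not overlap, and the lowest dyW library then lay just above the highest wt library. Osr1 (chr12:9538061-9631513, plus strand, GRCm39) read 10.7, 72.8, 22.6 and 18.9 in the wt libraries, 5.94 in dyW2 and 10.3 in dyW3, with no read in dyW1, which allows up to 0.292. The groups were separated only by the step from 10.3 in dyW3 to 10.7, or 2 reads, in wt1, and they overlapped when scaled to the same total. Its log2 fold change was -2.56 ± 1.05 (SE; limma, adjusted p = 0.0912), at a mean 5.78-fold lower in dyW (3.22-fold without wt2, 3.86-fold without dyW1 and 10.5-fold without dyW3), and -3.26 without dyW3 (adjusted p = 0.0301, within 0.0301 to 0.903 over 16 alternatives). The wt values of Osr1 were 0.39 to 1.32 times the receptor level.

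Among 13 other transcription factor genes of connective tissue and mesenchyme, Tbx5 fell at 0.01, and Tbx3 and Tcf21 fell at 0.05 (3 of 13 in all), while 0 rose. Of all genes tested, 29.6% fell at 0.05 and 18.7% at 0.01, so these shares were no higher than the background. Without dyW3 the adjusted p of Tbx5, Tcf21 and Tbx3 were 0.0102, 0.0201 and 0.0615. Tbx5, a T-box factor of the forelimb field, read between 4.10 and 13.5 in wt with no read in any dyW library (limma, adjusted p = 0.00531), and Tcf21 likewise read between 3.15 and 21.6 against none (adjusted p = 0.0103). Tbx3 read between 12.3 and 42.6 in wt and between 0 and 9.06 in dyW (limma, adjusted p = 0.0435). The dyW mean was 3.70 for Tbx3 and 0 for Tbx5 and Tcf21, so these 3 genes passed the filter of a mean of at least 5 only through wt. The wt values of the 3 genes rested on 1 to 10 reads, at 0.24 to 0.67 times the receptor level for Tbx5, 0.20 to 1.24 for Tcf21 and 0.29 to 1.54 for Tbx3. The median of the 13 was 0.40, and the 3 with the highest mean, Tcf7l2, Meox2 and Ebf1, passed no test.

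Of the tendon genes, Scx was low in every library. Scx lies on chromosome 15 (chr15:76341563-76344281, plus strand, GRCm39) inside an intron of Bop1, which is on the other strand. Normalized counts were 15.99, 2.70, 14.4 and 15.7 in wt1 to wt4, from 1 to 7 reads, and 3.51, 1.64 and 0 in dyW1 to dyW3. The dyW libraries lay below wt1, wt3 and wt4, but wt2 fell between dyW1 and dyW2. The mean was 7.10-fold lower in dyW, or 14.8-fold without dyW1 and 4.73-fold without dyW3, and the log2 fold change was -2.30 ± 0.88 (SE; limma, adjusted p = 0.0742; exact two-sided permutation p = 0.114), or -1.71 without dyW3 (adjusted p = 0.129). The 36 and 13 reads in dyW1 and dyW2 outnumbered those of any wt library, which had fewer reads in all.

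Mkx, the homeobox factor of tendon, read 26.7, 29.7, 26.7 and 25.2 in the wt libraries and 56.6, 29.2 and 17.6 in dyW1 to dyW3. The wt libraries were within 1.18-fold of each other and the dyW libraries surrounded them, with a log2 fold change of 0.19 ± 0.65 (SE; 95% interval -1.29 to 1.66; limma, adjusted p = 0.847), or 0.58 without dyW3 (adjusted p = 0.456). Each wt value of Mkx was under the receptor level, at 0.44 to 0.81 times it. The exons of Mkx overlap those of the lncRNA genes Gm2350 and Gm46633.

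Tnmd varied most. It lies on chromosome X (chrX:132751720-132766326, plus strand, GRCm39) and overlaps no other gene. Normalized counts were 5.33, 86.3, 426.7 and 34.6 in wt1 to wt4, an 80.0-fold range, and 0, 1097 and 197.8 in dyW1 to dyW3. The zero in dyW1 stood in a library of 14363788 reads and allows up to 0.292 normalized counts, while dyW2 held 8674 reads of the gene. The groups overlapped throughout (log2 fold change 0.16 ± 2.29, SE; 95% interval -5.02 to 5.35; limma, adjusted p = 0.963). The log2 fold change was 3.12 without dyW1, the library with muscle fiber markers near 0, -1.93 without dyW2 and -0.70 without dyW3, with none past a threshold (adjusted p = 0.162, 0.550 and 0.841, within 0.162 to 0.994 over 17 alternatives). In wt2, wt3 and wt4 Tnmd was 8.70, 80.2 and 4.02 times the receptor level, the 3 wt values above 3 times among the 10 genes.

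Absence from 1 dyW library beside a clear level in another was seen for 2 of the 10 genes, Pdgfrb and Tnmd, where no read in 1 library stood beside at least 20 normalized counts in another. This held for 20.3% of all tested genes in dyW. In the wt libraries it held for 0 of the 10 genes and for 7.95% of all tested genes. The 2 genes did not share the library: Pdgfrb was absent from dyW3 and highest in dyW1, and Tnmd was absent from dyW1 and highest in dyW2.

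Per kb of exon, Tnmd had the highest mean level in both groups, at 94.4 ± 133.3 normalized counts per kb for wt (SD, n = 4) and 294.8 ± 399.4 for dyW (SD, n = 3). Its SD exceeded its mean in each group. It was the highest of the 10 in wt2, wt3, wt4, dyW2 and dyW3, but not in wt1, at 3.64 per kb, or in dyW1, at 0. In wt the next were Tcf4 at 7.28 ± 1.17, Prrx1 at 7.23 ± 2.21, Pdgfra at 6.76 ± 3.03 and Twist1 at 5.92 ± 2.78, which lay within their SDs of each other. Scx at 4.49 ± 2.34, Pdgfrb at 3.91 ± 0.83 and Osr1 at 3.82 ± 3.45 also lay within their SDs, followed by Mkx at 2.77 ± 0.19 and Twist2 at 1.34 ± 0.75. In dyW, Tcf4 at 26.2 ± 4.3, Pdgfra at 24.7 ± 2.4, Twist1 at 23.6 ± 12.2 and Prrx1 at 14.7 ± 8.5 per kb were next to Tnmd, each within its SD of its neighbour or nearly so. Below them came Pdgfrb at 5.66 ± 8.74, Mkx at 3.53 ± 2.05, Osr1 at 0.66 ± 0.63, Scx at 0.63 ± 0.65 and Twist2 at 0.54 ± 0.94. Leaving out Tnmd, the means of the other genes ran from 1.34 to 7.28 per kb in wt and from 0.54 to 26.2 in dyW.

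A fit with the receptor level subtracted from every gene in every library was also made (chosen after seeing the data). The receptor median is 0 in dyW1 and dyW2, so the subtraction takes reads only from the 4 wt libraries and dyW3, and an upward move of the fold changes of low genes is fixed by this construction. The median log2 fold change over all genes moved from -1.99 to 0.25, and that of the 10 genes from 0.17 to 3.55. After subtraction the wt values of Mkx were all 0 and those of Tcf4 were between 25.7 and 118.2, against between 615.7 and 830.2 in dyW. Log2 fold changes after subtraction were 3.61 ± 0.60 for Tcf4, 5.39 ± 1.75 for Pdgfra, 4.12 ± 0.996 for Twist1 and 4.69 ± 0.99 for Mkx (SE), and limma's adjusted p were 0.0639, 0.189, 0.111 and 0.0888, so that none passed 0.05. Osr1 and Scx, the 2 genes lower at an unadjusted p under 0.05 before subtraction, had log2 fold changes of 0.54 and -0.16 after it (adjusted p = 0.853 and 0.967).

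**Figure D4:**
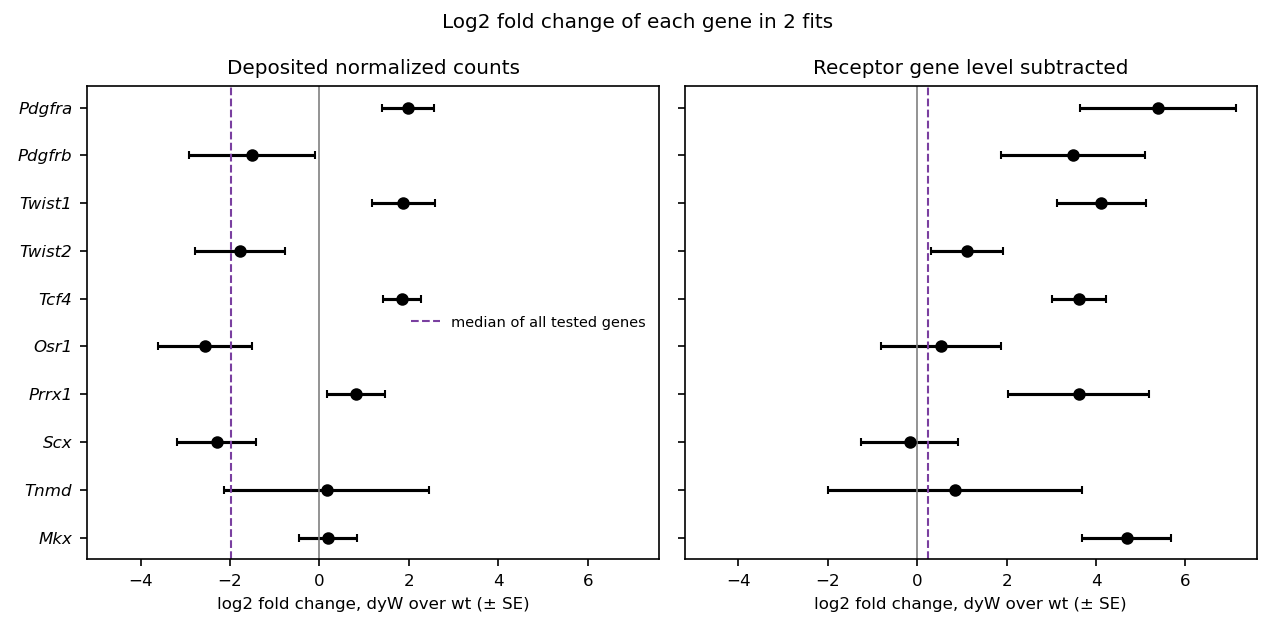
Log2 fold change of dyW over wt (x axis) with its SE for each of the 10 genes, from the deposited normalized counts (left) and with the receptor gene level subtracted (right); the dashed line is the median of all 25791 tested genes, at -1.99 on the left and 0.25 on the right. Pdgfra, Twist1 and Tcf4 lie above 0 in both panels, and Osr1, Pdgfrb and Twist2 change side; the subtraction lowers the wt libraries and dyW3 only.

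Over the 7 libraries, the genes most like each abundant member in log2(normalized count + 1), by Pearson's r as a description, were as follows. The libraries share depth and size factor, and the match was over 7 points. For Pdgfra they were Pkd2 (r = 0.985), Gnaq (0.977) and Fer (0.976), and for Tcf4 they were Arid4b (0.993), Orc4 (0.987) and Ppm1b (0.986). Prrx1 was most like Slc38a4 (0.976), Msl3 (0.959) and Api5 (0.956). Tnmd was most like Dpt (0.998), the gene of the fibroblast matrix protein dermatopontin, then Cma1 (0.996) and Eci1 (0.994). Dpt read 5.33, 72.8, 219.5 and 31.5 in the wt libraries and 0, 754.2 and 176.8 in dyW1 to dyW3, the same order of libraries as Tnmd.

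The 15 surface and matrix markers of fibroblasts gave a wider frame. Their summed normalized counts were between 4531 and 15992 in wt and between 22268 and 34367 in dyW without overlap. The separation rests on the 2 genes of type I collagen: without Col1a1 and Col1a2 the sums were between 3455 and 12525 in wt, and 1755 in dyW1, 26409 in dyW2 and 22120 in dyW3, so dyW1 lay below every wt library. The median log2 fold change of the 15 was 0.71. Of the 15, Pi16 fell at 0.01 (between 36.9 and 309.2 in wt, between 1.47 and 12.1 in dyW; limma, adjusted p = 0.00886), and Col1a2 and Fap rose at 0.05. Of all genes tested, 18.7% fell at 0.01 and 1.004% rose at 0.05, and 3.98% of genes with a mean of at least 50 rose. Without dyW3 the adjusted p of Pi16, Col1a2 and Fap were 0.0148, 0.0181 and 0.0258. Fap, fibroblast activation protein, read between 32.0 and 170.3 in wt and 350.1, 652.0 and 552.8 in dyW (log2 fold change 2.68 ± 0.65, SE; limma, adjusted p = 0.0132). Col1a2, a chain of type I collagen, read between 735.7 and 2581 in wt and between 4104 and 12046 in dyW (limma, adjusted p = 0.0157). In wt, Col1a2 was 17.3 to 56.1 times the receptor level, Fap 1.62 to 7.97 times and Pi16 1.44 to 14.5 times. The markers with the highest mean, Col3a1, Col1a2 and Col1a1, were not alike: Col3a1 read 232.1 in dyW1 against 11721 in dyW2, while Col1a1 read 8467 in dyW1 against 1987 in dyW2.

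Tendon genes other than Scx, Mkx and Tnmd also divided. Of 12, Cilp2 fell at 0.05 (between 8.21 and 37.8 in wt, between 0 and 6.35 in dyW; limma, adjusted p = 0.0235) and Col12a1, a collagen of tendon and fascia, rose (between 191.5 and 219.5 in wt, between 499.6 and 753.1 in dyW; log2 fold change 1.597 ± 0.43, SE; adjusted p = 0.0212), 1 of 12 each against 29.6% and 1.004% of all genes tested. Of genes with a mean of at least 50, 3.98% rose. Cilp2, with a dyW mean of 2.20, passed the filter of a mean of at least 5 only through wt. Without dyW3 the adjusted p of Cilp2 and Col12a1 were 0.00351 and 0.0313. Tnc, tenascin C, lay above wt in every dyW library, at 1958, 445.7 and 163.6 against at most 137.4, with an adjusted p of 0.0701 (limma). Of all genes 3.28% did so, and 12.2% of genes with a mean of at least 50. The median of the 12 was -0.66, and Egr1, Bgn and Thbs2, the 3 with the highest mean, passed no test. The wt values of Cilp2 were 0.47 to 1.31 times the receptor level and those of Col12a1 1.85 to 3.95 times. Bgn was highest in wt1, at 2985, the library with 433621 normalized counts of cartilage markers, and the part of cartilage in this value was not tested.

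Of 13 genes for signals that act on tendon progenitors, 11 were in the table and 9 were tested. Fgf4 fell at 0.01 (between 8.21 and 18.9 in wt, no read in dyW; limma, adjusted p = 0.00384) and Tgfbr1, a TGF-β receptor, rose at 0.05 (between 51.3 and 101.3 in wt, between 148.7 and 366.1 in dyW; log2 fold change 1.89 ± 0.57, SE; adjusted p = 0.0344), 1 of 9 each against 18.7% and 1.004% of all genes tested. Of genes with a mean of at least 50, 3.98% rose. Fgf4, with no read in dyW, passed the filter of a mean of at least 5 only through wt. Without dyW3 the adjusted p of Fgf4 and Tgfbr1 were 0.00398 and 0.0590. The wt values of Fgf4, from 2 to 7 reads, were 0.66 to 0.94 times the receptor level and those of Tgfbr1 1.44 to 4.55 times. The median of the 9 tested genes was -0.04. Fgfr1 and Tgfbr2, which with Tgfbr1 had the highest means, passed no test.

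Markers of other cell types were set beside these values. Of 6 endothelial markers 0 passed at 0.05, with a median log2 fold change of 0.62, and they summed to between 350.8 and 619.9 in wt and between 573.8 and 1336 in dyW. Emcn, the gene of endomucin, was the 1 of the 6 with every dyW library above every wt library, against 3.28% of all genes tested and 12.2% of genes with a mean of at least 50 (between 41.03 and 94.4 in wt, between 105.5 and 451.4 in dyW; log2 fold change 1.88, limma adjusted p = 0.0625). Tek, a receptor of endothelial cells, read between 15.99 and 59.8 in wt and 227.4, 204.5 and 37.6 in dyW1 to dyW3 with overlap (log2 fold change 2.19, limma adjusted p = 0.0748). Pecam1, the member with the highest mean, and Tie1 had log2 fold changes of -0.57 and -0.68, and all but Emcn overlapped between the groups. The part of endothelial cells in the values of the 10 genes was not tested. Of 5 myogenic progenitor markers 0 passed, with a median of -1.29. Of the 9 muscle fiber markers Ttn fell at 0.05 (adjusted p = 0.0201 by limma), against 29.6% of all genes tested, with a median of -2.66. Myh11 of 6 tested smooth muscle and pericyte markers also fell at 0.05, with a median of -2.13. Without dyW3 the adjusted p of Ttn was 0.0446 and that of Myh11 was 0.00245, at a log2 fold change of -5.04. The 5 leukocyte, 5 cartilage and 6 erythroid markers had 0 calls, with medians of -2.34, -4.37 and -1.55. Pdgfra, Twist1 and Tcf4 were high in dyW1, where the muscle fiber and erythroid lists summed to 65.4 and 14.8, and also in dyW2 and dyW3, where they summed to between 4267 and 171955.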

How the data were processed

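RNA was measured in 7 libraries, 4 wt and 3 dyW, 1 per fetus, and groups followed the sample labels. The authors made the libraries with SMART-seq2 and Nextera XT, used Cutadapt for trimming, RNA STAR for alignment to GRCm39 and FeatureCounts for unique reads per gene, and deposited counts divided by 1 DESeq2 size factor per library. The versions, annotation and strand setting are not given in the sources used here. The authors' table of fold changes and p-values was not used. These normalized counts, as deposited, were whole multiples of a step per library (100% of values within 0.05), which gave back the reads. PCR without molecular identifiers means that counting intervals cover counting error only.

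Genes with a mean of at least 5 were compared on log2(normalized count + 1) by moderated linear models with a trend (limma 3.58.1, R 4.3.3), with p-values adjusted by Benjamini-Hochberg over all 25791 tested genes. The mean was taken over both groups, so a gene could pass through the values of 1 group alone. Among the 10 genes, Twist2 and Scx passed only through wt, with dyW means of 3.04 and 1.72. On the log2(normalized count + 1) scale a fold change understates the change of a low gene. Ratios and single values were compared with exact two-sided permutation tests over the libraries. Exon lengths and coordinates came from GENCODE M39 (99.2% of identifiers matched) and promoters from RefSeq. Scripts ran in Python 3.11.15 with scipy 1.17.1, matplotlib 3.10.9, pandas 2.3.3 and numpy 2.4.6, and the fit was tested on simulated counts. The 10 genes and the lists were chosen with earlier results of these data known. Named are all 10 genes, Lama2, called or non-overlapping members of the lists with up to 3 of highest mean each, the 3 genes most like each abundant member, and, chosen after their values were seen, the marker genes at 0 and Dpt. Alternatives were other pseudocounts (0.1, 10), filters (none, a mean of at least 50), scaling to the same total, quantile normalization, voom, a replicate block, an adjusted p under 0.05 and each library left out; subtraction of the receptor level and leaving out wt1 with dyW1 were added after seeing the data. The result of 1 marker list is not reported here.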

Additional observations from a re-analysis of the deposited data

Results flagged for a closer look

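Among the 4 wt libraries, Scx in wt2 stood far below the others, at 2.70 normalized counts against 14.4 to 15.99. The gap was 0.877 of the range of the group, above Dixon's 95% critical value for 4 samples. The value is 1 read, and chance alone marks about 1 in 20 groups; with 10 genes looked at, 1 such value was found.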

How the results depend on the processing

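The counts over all genes moved most. The 4830 genes called lower became 0 with a pseudocount of 10, with a mean of at least 50, with the same total, with the receptor level subtracted and without wt1 and dyW1 together, 2 with quantile normalization and 7625 at an adjusted p under 0.05, and ran from 0 to 6698 with single libraries left out. The 17 called higher became 41 with a pseudocount of 0.1, 10 with no filter, 7 with voom and 259 at 0.05, and 0 with a pseudocount of 10, a mean of at least 50, the same total, quantile normalization, subtraction or without wt1 and dyW1, and ran from 0 to 25 with single libraries left out. Of the 10 genes, 1 was called higher with a pseudocount of 0.1 and 2 at 0.05 (0 to 1 with single libraries left out). At 0.05, 2 higher became 0 with a mean of at least 50 (4 genes left), quantile normalization or subtraction and 1 with voom (1 to 2 with single libraries left out), and 0 lower became 1 with voom (0 to 1). The cause of these moves was not tested.

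Deviations from the group means correlated at 0.15, -0.05 and -0.09 between same-numbered wt and dyW libraries. Between differently numbered ones they correlated at -0.12 to 0.23. So few correlations cannot decide whether the numbers pair the libraries. With a replicate block, 1 gene was called lower and 0 higher, 0 of the 10 genes passed at 0.05, and Tnmd had a log2 fold change of -0.038. The 2 planned quasi-likelihood fits on recovered reads were not run.

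The median of the 10 genes, 0.17, was 1.33 with a mean of at least 50, 1.11 with the same total, 0.995 with quantile normalization and 3.55 after subtraction; with a pseudocount of 0.1 its sign turned, to -0.35. Less that of all genes, 2.16, it was 2.91 and 1.28 with pseudocounts of 0.1 and 10, 1.14 with a mean of at least 50, 0.94 with quantile normalization, 3.31 after subtraction, and 1.85 to 2.95 with single libraries left out. The 1 gene with wt above dyW became 0 with the same total, quantile normalization or subtraction, 3 without wt1 and dyW1, and 1 to 3 with single libraries left out.

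Pdgfra, Tcf4, Twist1 and Prrx1 kept their direction in every alternative run. At 0.05 with the fold threshold, Tcf4 passed in 13 of 17 (adjusted p from 0.00293 to 0.495) and Pdgfra in 7 of 17 (0.0143 to 0.346). Direction reversed for Pdgfrb with quantile normalization (0.12), subtraction (3.49) and with single libraries left out (-3.27 to 0.23), for Twist2 with quantile normalization (1.26) and subtraction (1.11), for Osr1 with subtraction (0.54), for Scx with quantile normalization (1.05), for Mkx without wt1 and dyW1 (-0.25) and with single libraries left out (-0.24 to 0.58), and for Tnmd with a pseudocount of 0.1 (-0.88), voom (-2.47) and single libraries left out (-1.93 to 3.12). From 1 to 7 reads stand behind each wt value of Twist1, Twist2 and Scx.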
